A study of Danio rerio with 6 samples.

Results

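Protocadherins were examined in RNA-seq libraries of P2RY11 mutant zebrafish larvae and their WT siblings. Every row whose gene name starts with pcdh, in lower case or capitals, was taken, which gave 60 of the 19071 genes listed. Of these, 41 are clustered protocadherins (names that start with pcdh1a, pcdh1g, pcdh2a, pcdh2ab or pcdh2g and go on with a letter or number) and 19 are non-clustered (all others, with pcdh1a itself, a counterpart of the single gene PCDH1). The mutants carried an 8 bp deletion in exon 2 of p2ry11, made with CRISPR-Cas9 in a line from 1 founder, which shifts the reading frame and ends the protein early. The WT siblings were labelled as wild type. Both groups were whole larvae at 3 days post fertilization (dpf), kept in E3 medium with methylene blue, and each group had 3 libraries from total RNA of 50 pooled larvae. The sources used here do not give the clutches behind the pools, so a p-value below reflects library-to-library spread, which may be technical.

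Protocadherins are calcium-dependent adhesion proteins of the cadherin superfamily, most of them in the nervous system. In the clustered kind, many variable exons stand in tandem, each with its own promoter and each coding for the outer part of a protein, and the exons of a gamma or alpha array are spliced to shared constant exons. In mammalian neurons each cell uses a small set of these promoters, and matching sets let branches of a neuron recognize themselves and avoid each other. Zebrafish carry a duplicated pair of clusters, pcdh1 and pcdh2, each with alpha and gamma exons. The non-clustered genes stand alone, and their delta1 and delta2 members guide cell sorting, axon growth and the actin cytoskeleton.

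The mutated gene itself, p2ry11, which codes for a receptor of extracellular ATP, was listed at 0 FPKM in all 3 mutant libraries, against 0.707, 0.853 and 1.02 FPKM in WT siblings 1, 2 and 3. FPKM counts fragments per transcript length and per mapped fragments, so levels can be set side by side between genes, but the depth behind them is unknown. The FPKM of a library summed to 426645 to 434740 in mutants and to 443849 to 499493 in WT siblings. WT sibling 3 stood apart, with the highest sum and the lowest median FPKM per gene (3.81, against 4.52 and 4.84 in the other WT siblings and 5.10 to 5.39 in mutants). Since the RNA came from whole larvae, fewer cells of a type and less RNA per cell cannot be told apart. Reads of near-identical exons, and of constant exons shared by a cluster, may have been assigned to any of several protocadherin rows, so the split between clustered members is uncertain.

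The clustered protocadherins lay mostly higher in P2RY11 mutants. Among the 35 clustered members tested, 9 were higher in mutants and 1, pcdh2ab9, was lower, at an adjusted p under 0.05 from limma. Of all 18432 genes tested, 8.23% were called higher and 3.98% lower. The test was run on log2(FPKM + 1) of every gene whose FPKM averaged 0.5 or more across the 6 libraries, so a log2 difference is mutant minus WT sibling on that scale and understates the change of low genes. The median log2 difference was 0.51 in the clustered members tested and 0.16 in all genes tested, so it lay 0.35 above that of all genes. In 20 of the 35 all mutants exceeded all WT siblings, and in 1 all mutants lay below them (35.0% and 11.7% of all genes tested). The remaining 6 clustered members did not reach the mean of 0.5 FPKM and were not tested. Another 9 passed it although their mean in WT siblings was under 0.5, and 6 of the 9 called higher are among these, while no member passed it with a mutant mean under 0.5.

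**Figure D1:**
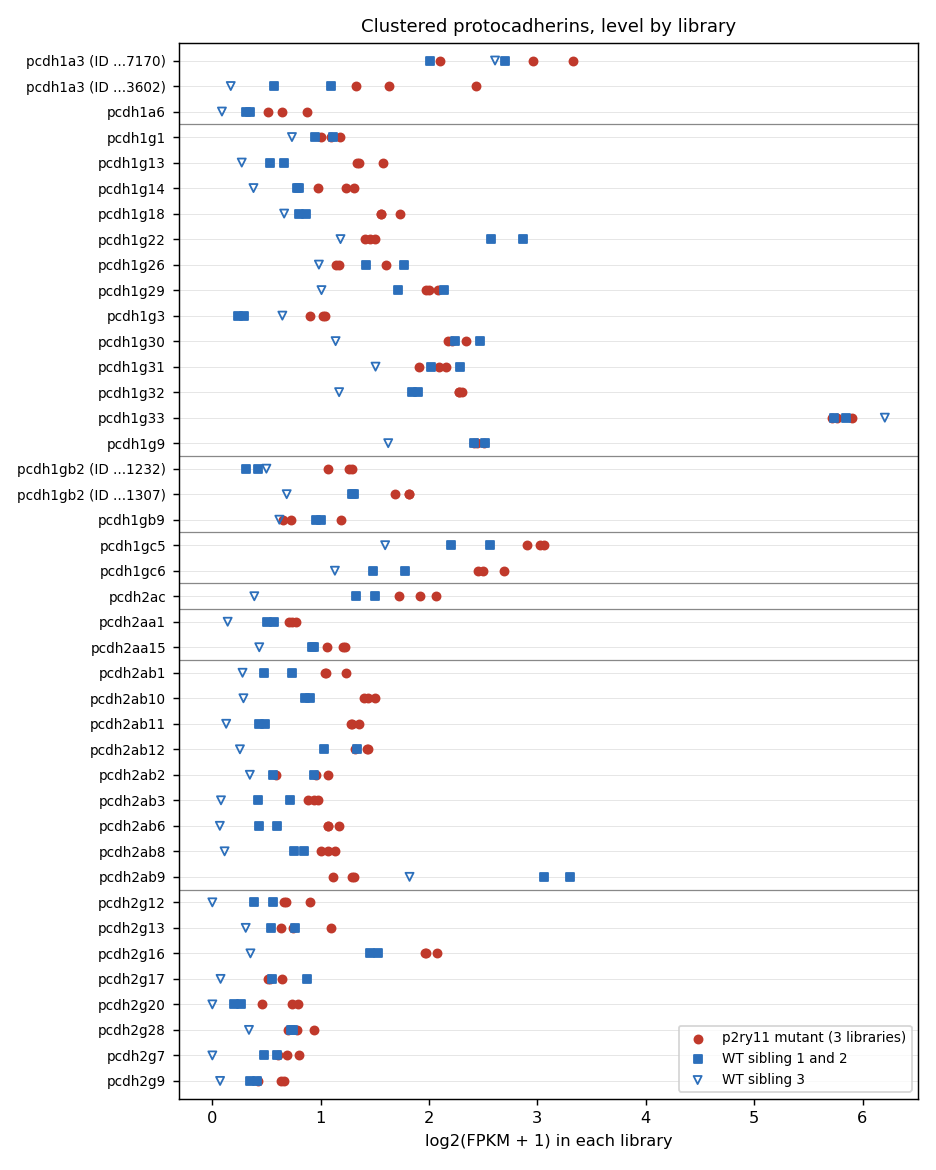
Level of each of the 41 clustered protocadherins in each library, as log2(FPKM + 1), with rows grouped by cluster and type (grey lines). Red circles are the 3 P2RY11 mutant libraries, filled blue squares WT siblings 1 and 2, and open triangles WT sibling 3, which was the lowest of the 6 libraries in 36 of the 41 rows.

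WT sibling 3 lay low for nearly the whole family. It was the lowest of the 6 libraries in 30 of the 35 clustered members tested and in 17 of the 19 non-clustered members, against 47.1% of all genes tested. Set against the mean of WT siblings 1 and 2, its log2 level had a median deviation of -0.50 in clustered members, -0.35 in non-clustered members and -0.12 in all genes tested. Protocadherins at 1 FPKM or more numbered 49, 47 and 48 in mutants 1, 2 and 3. In WT siblings 1, 2 and 3 they numbered 34, 37 and 25. All genes were not counted this way, and their median FPKM was also higher in every mutant than in every WT sibling. Without WT sibling 3 the median difference of the 38 clustered members then tested was 0.27, which is 0.16 above that of all genes. More members were then called, 15 clustered ones higher and 2 lower, with 20.2% of all genes called higher and 8.01% lower. All 9 called higher with the full set were among the 15.

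Most members called higher were single variable exons at a low level. The alpha exon pcdh2ab11 had 1.55, 1.44 and 1.43 FPKM in mutants 1, 2 and 3, against 0.404, 0.347 and 0.0925 FPKM in WT siblings 1, 2 and 3. Its 3 mutant values lay close together and far above every WT sibling. A log2 difference of 0.96 with SE 0.131 was fitted (adjusted p = 0.00988, limma), and the ratio of the group means was 5.23 with WT sibling 3 and 3.92 without it. Among gamma exons of the pcdh1 cluster, pcdh1g18 had 1.95, 2.32 and 1.95 FPKM in mutants, against 0.821, 0.736 and 0.583 FPKM in WT siblings. The gamma exon pcdh1g13 had 1.52, 1.97 and 1.56 FPKM in mutants and 0.580, 0.450 and 0.207 FPKM in WT siblings. Neither pair of groups overlapped, with log2 differences of 0.84 (SE 0.121, adjusted p = 0.0113 from limma) for pcdh1g18 and 0.93 (SE 0.144, adjusted p = 0.0140 from limma) for pcdh1g13.

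In 2 of the called gamma exons, WT sibling 3 was not the lowest library. The row pcdh1gb2 with ID ENSDARG00000101232 had 1.45, 1.40 and 1.10 FPKM in mutants, against 0.243, 0.338 and 0.413 FPKM in WT siblings. For pcdh1g3 the values were 1.05, 1.03 and 0.866 FPKM in mutants and 0.226, 0.182 and 0.565 FPKM in WT siblings. Here WT sibling 3 was the highest of its group, and the mutants lay above it in both genes. Both were singled out after their values were seen, and both passed the filter with a WT sibling mean under 0.5 FPKM (0.332 and 0.324). The log2 differences were 0.80 (SE 0.119, adjusted p = 0.0128 from limma) for pcdh1gb2 and 0.59 (SE 0.140, adjusted p = 0.0406 from limma) for pcdh1g3. Without WT sibling 3 they were 0.84 and 0.72. After quantile normalization neither gene was called (adjusted p = 0.0608 and 0.262 from limma). After median-of-ratios scaling pcdh1g3 was not called either (adjusted p = 0.0776 from limma).

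The other called alpha exons of the pcdh2 cluster were pcdh2ab6, pcdh2ab10 and pcdh2ab1. In pcdh2ab6 the mutants had 1.09, 1.25 and 1.09 FPKM, against 0.351, 0.516 and 0.0491 FPKM in WT siblings. In pcdh2ab10 the mutants had 1.64, 1.83 and 1.71 FPKM, against 0.862, 0.808 and 0.220 FPKM in WT siblings. In pcdh2ab1 the mutants had 1.06, 1.35 and 1.07 FPKM, against 0.388, 0.667 and 0.213 FPKM in WT siblings. All 3 genes were separated between the groups, with WT sibling 3 the lowest library in each. The log2 differences were 0.73 (SE 0.155, adjusted p = 0.0299 from limma) for pcdh2ab6, 0.77 (SE 0.180, adjusted p = 0.0399 from limma) for pcdh2ab10 and 0.61 (SE 0.148, adjusted p = 0.0422 from limma) for pcdh2ab1.

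The C-type exons form a distinct kind: in mice they are used by most neurons rather than chosen cell by cell. All 3 C-type rows, pcdh1gc5, pcdh1gc6 and pcdh2ac, were separated between the groups, with all mutants above all WT siblings, as were 35.0% of all genes tested. The gamma C exon pcdh1gc6 had 5.48, 4.46 and 4.63 FPKM in mutants, against 1.79, 2.42 and 1.19 FPKM in WT siblings. Its log2 difference of 1.09 (SE 0.184, adjusted p = 0.0174 from limma) was the largest of any member called higher on this scale, whereas with a pseudocount of 0.1 that of pcdh2ab11 was larger (2.16, against 1.43 for pcdh1gc6). For pcdh1gc5 the mutants had 7.36, 6.48 and 7.15 FPKM, against 3.60, 4.92 and 2.02 FPKM in WT siblings, a log2 difference of 0.88 (SE 0.235) that missed the threshold (adjusted p = 0.0531 from limma). The alpha C exon pcdh2ac had 3.17, 2.29 and 2.78 FPKM in mutants, against 1.5, 1.83 and 0.308 FPKM in WT siblings, where WT sibling 3 was far below the other WT siblings. At a log2 difference of 0.83 (SE 0.288) it was not called (adjusted p = 0.0929 from limma). Without WT sibling 3, pcdh1gc5 and pcdh2ac were called too, with adjusted p of 0.0101 and 0.0315 from limma. The 2 gamma C rows together summed to 11.9 ± 0.948 FPKM in mutants and 5.31 ± 2.06 FPKM in WT siblings (SD, n = 3 each).

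A pair of clustered members lay lower in mutants than in WT siblings 1 and 2. The alpha exon pcdh2ab9 had 1.44, 1.16 and 1.47 FPKM in mutants, against 8.84, 7.36 and 2.53 FPKM in WT siblings 1, 2 and 3. Every mutant library was below every WT sibling library, and the mutant values stood at the level of the other pcdh2ab exons, while WT siblings 1 and 2 were several-fold above that level. The fitted log2 value for mutant minus WT sibling was -1.49 (SE 0.361, adjusted p = 0.0422 from limma), the adjusted p was 0.0521 after rescaling to TPM, and without WT sibling 3 the difference was -1.95 (adjusted p = 0.000102 from limma). Its share of the summed FPKM of all 41 clustered rows was 1.02% ± 0.0977 in mutants and 5.42% ± 2.70 in WT siblings (SD, n = 3 each). The gamma exon pcdh1g22 had 1.83, 1.74 and 1.65 FPKM in mutants, against 4.96, 6.30 and 1.27 FPKM in WT siblings. Here WT sibling 3 fell below all mutants, so the groups overlapped, and the log2 difference of -0.75 (SE 0.402) was not called (adjusted p = 0.217 from limma). Without that library it was -1.27 (SE 0.124, adjusted p = 0.000650 from limma).

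**Figure D2:**
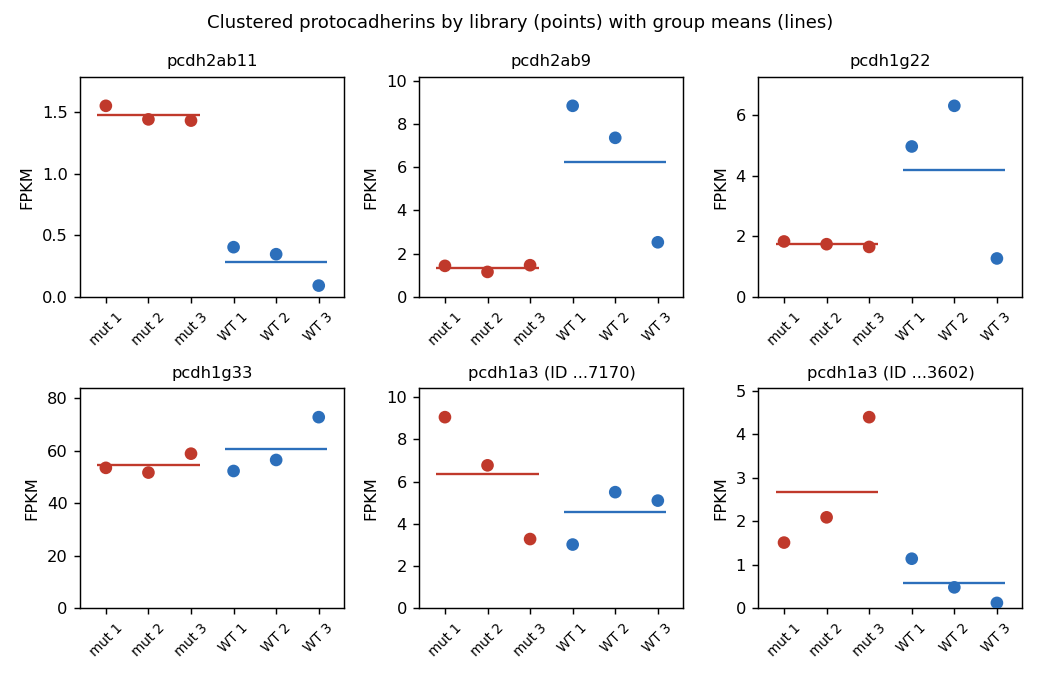
FPKM in each library (points) with group means (lines) for 6 clustered rows, with the 3 P2RY11 mutant libraries in red left of the 3 WT sibling libraries in blue. The mutants lie above all WT siblings in pcdh2ab11 and below them in pcdh2ab9, WT sibling 3 lies below all mutants in pcdh1g22 and above them in pcdh1g33, and the rows named pcdh1a3 differ in which mutant library is highest.

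One gamma row held much of the clustered signal. Reads of constant exons shared by the cluster may lie in it, so its level may not be that of a single exon. The FPKM of pcdh1g33 were 53.5, 51.7 and 58.9 in mutants, against 52.3, 56.5 and 72.8 in WT siblings, and the groups overlapped. It was the only clustered protocadherin with a mean above 10 FPKM, and limma gave it a log2 difference of -0.13 with SE 0.132 (adjusted p = 0.492). WT sibling 3, the lowest library in most other members, was the highest library here. This row made up 41.2% ± 2.42 of the summed clustered FPKM in mutants and 54.8% ± 15.5 in WT siblings (SD, n = 3 each), and 72.7% in WT sibling 3 alone. The other 40 clustered rows summed to 82.7, 76.4 and 75.2 FPKM in mutants 1, 2 and 3, against 60.0, 69.0 and 27.3 FPKM in WT siblings 1, 2 and 3. Every mutant sum was above every WT sibling sum, and WT sibling 3 had less than any other library. The next highest gamma exons outside the C type, pcdh1g9, pcdh1g30 and pcdh1g31, overlapped between the groups. Their log2 differences of 0.27, 0.29 and 0.12 were -0.014, -0.11 and -0.099 without WT sibling 3. At nearly the level of pcdh1g31, pcdh1g32 was separated, with 3.93, 3.84 and 3.83 FPKM in mutants, against 2.58, 2.73 and 1.25 FPKM in WT siblings. Its log2 difference was 0.65 (adjusted p = 0.0769 from limma), and 0.41 without WT sibling 3 (adjusted p = 0.0197 from limma).

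The rows that share the name pcdh1a3 moved apart within the mutant group. The row with ID ENSDARG00000097170, called pcdh1a4 in the gene name table, had 9.05, 6.77 and 3.28 FPKM in mutants 1, 2 and 3, against 3.02, 5.50 and 5.10 FPKM in WT siblings. The row with ID ENSDARG00000103602 had 1.51, 2.09 and 4.39 FPKM in mutants, against 1.14, 0.482 and 0.125 FPKM in WT siblings. Mutant 3, the lowest mutant in the first row, was the highest in the other, and WT sibling 1 had the same pattern among WT siblings. Added together, the rows gave 10.6, 8.86 and 7.66 FPKM in mutants, against 4.16, 5.99 and 5.22 FPKM in WT siblings, with no overlap. Separately, neither was called: the first row overlapped (log2 difference 0.36, adjusted p = 0.460 from limma) and the other was separated (1.18, SE 0.334, adjusted p = 0.0605 from limma).

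Most gamma exons of the pcdh2 cluster stood at a low level, and 5 of 8 rows were not tested. The highest of them, pcdh2g16, is called pcdh2g28 in the gene name table. It had 2.90, 3.21 and 2.91 FPKM in mutants, against 1.74, 1.88 and 0.276 FPKM in WT siblings. Its groups were separated, at a log2 difference of 0.89 with SE 0.304 (adjusted p = 0.0898 from limma), and without WT sibling 3, which was far the lowest, it was called at 0.51 (adjusted p = 0.0122 from limma). The protocadherins listed at 0 in any library were pcdh2g12, pcdh2g20 and pcdh2g7, and in each the 0 was in WT sibling 3. In mutants 1, 2 and 3, pcdh2g12 had 0.871, 0.598 and 0.578 FPKM, against 0.306, 0.475 and 0 in WT siblings. The values of pcdh2g20 were 0.726, 0.665 and 0.378 FPKM in mutants and 0.152, 0.200 and 0 in WT siblings. For pcdh2g7 they were 0.614, 0.522 and 0.744 FPKM in mutants and 0.395, 0.517 and 0 in WT siblings. In all 3 the mutants lay above every WT sibling, for pcdh2g7 by a small gap only. Since these rows were named for a value of 0, which lay in WT sibling 3, this is a description only. When the filter was left out and all 41 clustered rows were tested, pcdh2g20 joined the members called higher (adjusted p = 0.0477 from limma), which made 10 higher and 1 lower, with 8.59% and 4.14% of all 19071 genes. The other untested rows, pcdh1a6, pcdh2g9 and pcdh2g17, had means of 0.607, 0.489 and 0.478 FPKM in mutants and 0.191, 0.220 and 0.449 FPKM in WT siblings. The 8 pcdh2 gamma rows summed to 7.41 ± 0.131 FPKM in mutants and 3.64 ± 2.39 FPKM in WT siblings (SD, n = 3 each), and the WT sibling range of 0.882 to 5.13 FPKM lay wholly below the mutant range of 7.26 to 7.49 FPKM.

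By type, the sums showed where the clustered difference lay on the FPKM scale. The calls given for each type stand beside 8.23% of all genes called higher and 3.98% lower, and each type holds few rows. The 13 pcdh1 gamma rows, which include pcdh1g33, summed to 83.4 ± 2.86 FPKM in mutants and 83.6 ± 4.86 FPKM in WT siblings (SD, n = 3 each), and 3 of the 13 were called higher. The 3 pcdh1 gamma B rows summed to 4.56 ± 0.637 FPKM in mutants and 2.34 ± 0.681 FPKM in WT siblings, and 1 was called higher. The 9 alpha exons named pcdh2ab, with 4 called higher and 1 lower, summed to 11.3 ± 0.0855 FPKM in mutants and 10.2 ± 5.64 FPKM in WT siblings. In this type the ratio of group means was 1.11 with WT sibling 3 and 0.841 without it, so the summed level turned direction, while each of the 9 members kept its own. The 2 exons named pcdh2aa summed to 1.91 ± 0.175 FPKM in mutants and 1.06 ± 0.523 FPKM in WT siblings, with none called.

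**Figure D3:**
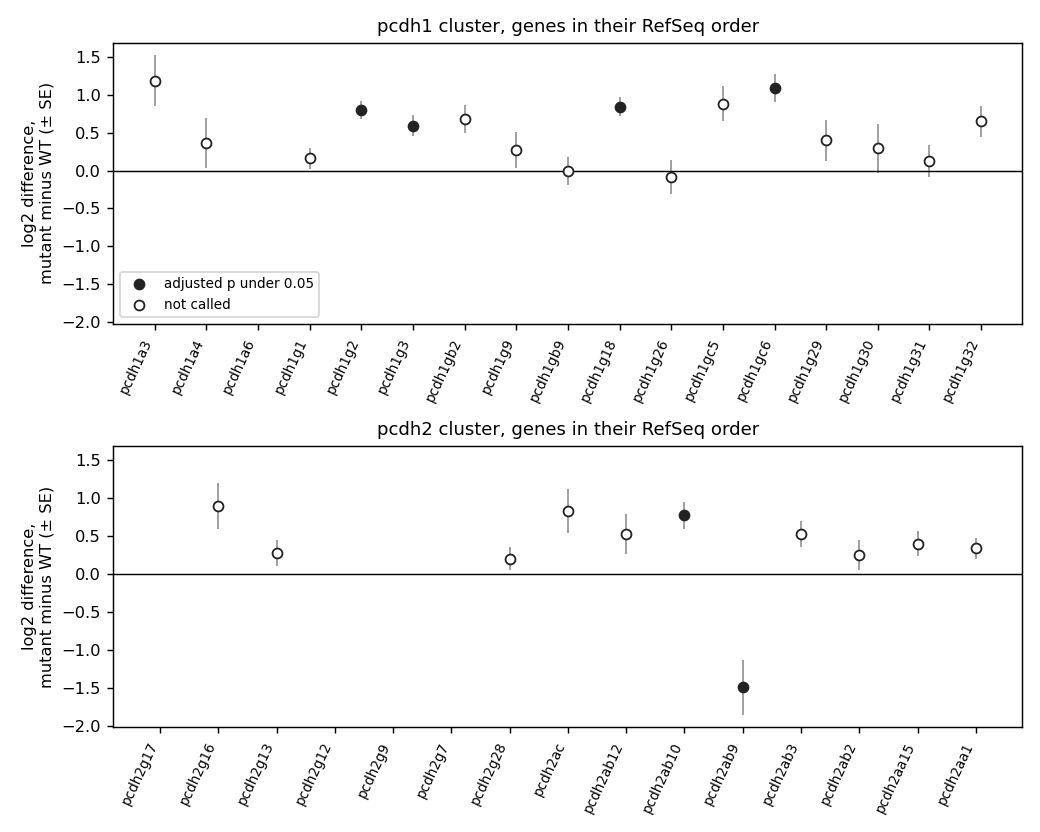
Log2 difference (mutant minus WT sibling, ± SE) of the clustered protocadherins that RefSeq places, in their order along the pcdh1 cluster (top) and the pcdh2 cluster (bottom), with distances not to scale and names as in RefSeq. Filled points were called at an adjusted p under 0.05, open points were not, and names with no point were not tested. The row pcdh2ab9 at -1.49 stands beside pcdh2ab10 at 0.77. The row pcdh2g16 is pcdh2g28 in the gene name table, so its place is uncertain.

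Not every called member could be placed in gene order. A RefSeq table of another assembly held the symbols of 50 of the 60 rows, none on the chromosome of p2ry11, and was used for gene order only. It left 4 of the 10 called clustered members without a place (pcdh1g13, pcdh2ab1, pcdh2ab6 and pcdh2ab11). The order holds only the members placed, so other genes may lie between neighbours. The row pcdh2g16 was placed by that symbol, although the gene name table calls it pcdh2g28, so its place is uncertain. In that order pcdh2ab9, lower in mutants, stood next to pcdh2ab10, which was higher, with pcdh2ab3 (log2 difference 0.53, adjusted p = 0.0797 from limma) on its other side. In the pcdh1 cluster, the called row ENSDARG00000101232 (pcdh1g2 in the table) stood beside the called pcdh1g3, and pcdh1gc5 stood beside the called pcdh1gc6. Between these pairs, in order, the pcdh1gb2 row with ID ENSDARG00000101307, pcdh1g9, pcdh1gb9, the called pcdh1g18 and pcdh1g26 had log2 differences of 0.68, 0.27, -0.0058, 0.84 and -0.086.

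The 19 non-clustered protocadherins were all tested, and 1, pcdh18b, was called higher and 0 lower by limma. Of all genes 8.23% were called higher, and 1 call among 19 rows cannot be told from that share. At an unadjusted p under 0.05 there were 7 higher and 0 lower, with 26.0% of all genes higher and 9.21% lower. Their median log2 difference was 0.31, which is 0.14 above that of all genes, and 18 of the 19 were positive, as were 68.9% of all genes tested. In 8 all mutants exceeded all WT siblings, and in 0 all lay below them (35.0% and 11.7% of all genes). Without WT sibling 3, 6 were called higher (20.2% of all genes), and the median was 0.19, which is 0.074 above that of all genes.

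**Figure D4:**
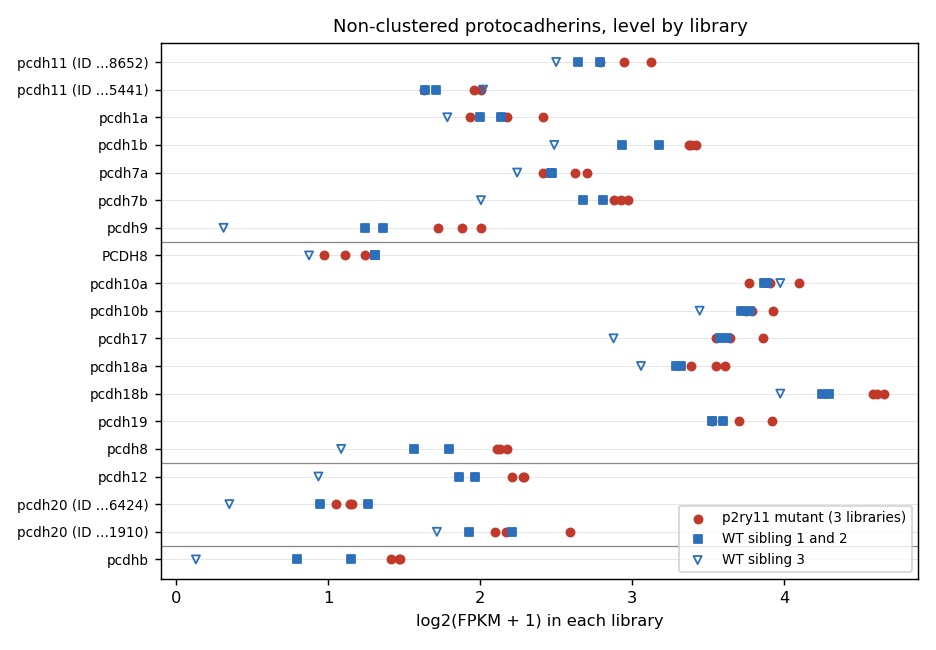
Level of each of the 19 non-clustered protocadherins in each library, as log2(FPKM + 1), with rows grouped as delta1, delta2, other and unplaced from top to bottom (grey lines). Red circles are the 3 P2RY11 mutant libraries, filled blue squares WT siblings 1 and 2, and open triangles WT sibling 3; pcdh18b is the highest row, with the 3 mutants above all WT siblings.

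Among delta2 members, pcdh18b, which in zebrafish shapes motor axon branching, was both the highest non-clustered protocadherin and the one called. It had 24.2, 23.0 and 23.4 FPKM in mutants, against 18.0, 18.6 and 14.7 FPKM in WT siblings. The groups did not overlap, and limma gave 0.45 on the log2 scale with SE 0.106 (adjusted p = 0.0413; 0.0925 after median-of-ratios scaling). Its duplicate pcdh18a had 11.2, 10.7 and 9.43 FPKM in mutants, against 8.78, 8.98 and 7.32 FPKM in WT siblings, also without overlap (log2 difference 0.29, SE 0.117, adjusted p = 0.125 from limma). The paraxial protocadherin gene pcdh8, which acts in gastrulation and somite formation, had 3.51, 3.37 and 3.31 FPKM in mutants, against 1.96, 2.46 and 1.12 FPKM in WT siblings. That separation gave a log2 difference of 0.66 (SE 0.189, adjusted p = 0.0632 from limma, and 0.0211 without WT sibling 3).

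The other delta2 members overlapped between the groups. The epilepsy gene of humans PCDH19 has its zebrafish counterpart in pcdh19, with 14.1, 10.5 and 12 FPKM in mutants, against 10.5, 11.1 and 10.5 FPKM in WT siblings (log2 difference 0.17, SE 0.119, adjusted p = 0.333 from limma). For pcdh10a and pcdh10b, whose mouse counterpart acts in axon growth, the log2 differences were 0.013 (SE 0.108) and 0.18 (SE 0.118), and for pcdh17 0.33 (SE 0.208). After median-of-ratios scaling pcdh19, pcdh10a and pcdh10b turned to -0.011, -0.17 and -0.0036. A further row written in capitals as PCDH8 had 1.16, 0.956 and 1.36 FPKM in mutants, against 1.47, 1.47 and 0.831 FPKM in WT siblings. It was the only non-clustered member with a negative log2 difference (-0.053, SE 0.160, adjusted p = 0.831 from limma), and this was positive after rescaling to TPM (0.0052).

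None of the 7 delta1 rows was called by limma. With so few rows this cannot be told from the 8.23% of all genes called higher. In 3 of the 7 the groups were separated, with all mutants above all WT siblings, as in 35.0% of all genes tested. The delta1 gene pcdh1b had 9.70, 9.46 and 9.34 FPKM in mutants, against 6.62, 8.03 and 4.60 FPKM in WT siblings, a log2 difference of 0.53 (SE 0.175, adjusted p = 0.0839 from limma). In pcdh9 the mutants had 3.01, 2.30 and 2.67 FPKM, against 1.36, 1.56 and 0.240 FPKM in WT siblings, a log2 difference of 0.90 (SE 0.275, adjusted p = 0.0716 from limma). Of the WT siblings, number 3 was far the lowest in pcdh9, and without it the log2 difference was 0.57 (adjusted p = 0.0135 from limma). The third separated row was pcdh7b, with log2 difference 0.43 (SE 0.210), while pcdh7a, pcdh1a and both rows named pcdh11 overlapped, with log2 differences of 0.19, 0.20, 0.31 and 0.076. Together the 7 delta1 rows summed to 36.7 ± 3.00 FPKM in mutants and 27.2 ± 5.02 FPKM in WT siblings, and the 8 delta2 rows to 90.0 ± 7.12 FPKM in mutants and 74.4 ± 7.94 FPKM in WT siblings (SD, n = 3 each).

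The remaining non-clustered rows were pcdh12, the rows named pcdh20, and pcdhb. The gene pcdh12, an adhesion gene of endothelium in mammals, had 3.85, 3.62 and 3.89 FPKM in mutants, against 2.62, 2.90 and 0.911 FPKM in WT siblings (log2 difference 0.67, SE 0.266, adjusted p = 0.121 from limma). In pcdhb the mutants had 1.66, 1.77 and 1.76 FPKM, against 0.732, 1.22 and 0.0930 FPKM in WT siblings (log2 difference 0.76, SE 0.247, adjusted p = 0.0816 from limma). Both genes were separated between the groups, with WT sibling 3 far below the other libraries, and without it the log2 differences were 0.35 and 0.48, both called (adjusted p = 0.0396 and 0.0341 from limma). In the RefSeq order of the protocadherins placed, pcdhb comes next after pcdh2aa1, the last placed row of the pcdh2 cluster, although its name puts it outside the clustered rows. The rows named pcdh20 overlapped between the groups (log2 differences 0.27 and 0.34, adjusted p = 0.419 and 0.235 from limma).

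**Figure D5:**
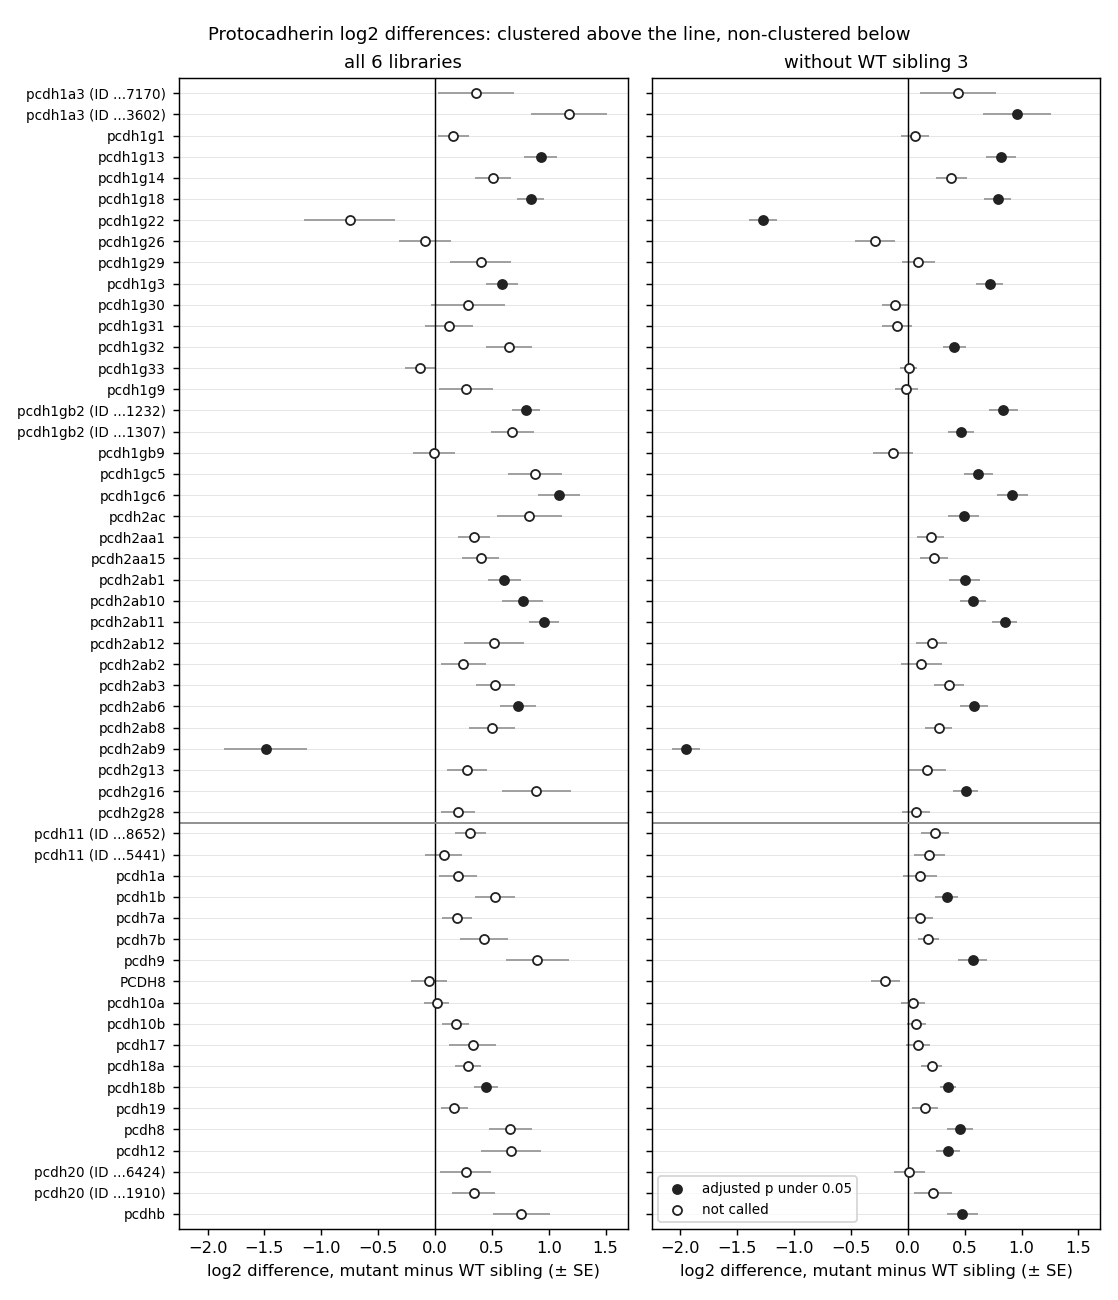
Log2 difference (mutant minus WT sibling, ± SE) of the 54 protocadherins tested with all 6 libraries (left) and the same genes without WT sibling 3 (right), clustered rows above the line and non-clustered rows below it. Filled points were called at an adjusted p under 0.05; 11 are filled on the left and 23 on the right, where most points lie closer to 0 with shorter bars.

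Calls depended on which library was left out. Without WT sibling 1, 3 protocadherins were called higher by limma (1.21% of all genes), and without WT sibling 2, 13 were (7.41% of all genes), with 0 lower in both, so pcdh2ab9 was then not called. Without any one of the 3 mutant libraries no protocadherin was called by limma. The share of all genes called in either direction was then 1.45%, 1.42% and 1.01%, too low to set protocadherins apart. At an unadjusted p under 0.05, 15, 16 and 14 of the clustered members were higher in these fits, with 15.8%, 19.0% and 17.3% of all genes. Of the 9 clustered members called higher, 6 were also called after median-of-ratios scaling (3.62% of all genes higher, 5.70% lower), namely pcdh1g13, pcdh1g18, the row ENSDARG00000101232 of pcdh1gb2, pcdh1gc6, pcdh2ab11 and pcdh2ab6. The 11 called members kept their direction in every alternative that tested them. All 11 were separated between the groups, so leaving out a library or changing the filter, pseudocount or block could not reverse them. For these alternatives the kept direction is therefore no further evidence. Scaling moved all genes: median-of-ratios scaling put their median of 0.16 at 0.012, quantile normalization at 0.0056 and TPM rescaling at 0.28. Relative to these, the median of the clustered members lay 0.42, 0.27 and 0.53 higher. That of the non-clustered members lay 0.14, 0.12 and 0.17 higher. In an ordinary linear model with a library covariate, the clustered median lay only 0.09 and the non-clustered median 0.021 above that of all genes.

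Genes known to act with or on protocadherins were taken from textbook roles in 6 lists of 74 symbols, of which 66 were listed and tested. By limma 7 of the 66 were higher in mutants and 0 lower, with 26 higher and 1 lower at an unadjusted p under 0.05. Of all genes 8.23% were called higher, so that count is near the background, and 26.0% were higher at the unadjusted p. Their median log2 difference was 0.30, which is 0.14 above that of all genes. Of 22 genes for promoter choice (the insulator protein CTCF, cohesin and DNA methylation), 4 were higher. These were the DNA methyltransferase genes dnmt3bb.2 (7.75, 7.78 and 7.39 FPKM in mutants, against 4.23, 4.51 and 3.60 in WT siblings) and dnmt3aa (2.13, 2.15 and 2.17 FPKM in mutants, against 0.959, 1.21 and 0.458 in WT siblings), the related dnmt3ba, and the cohesin loader gene nipblb. Their log2 differences were 0.76, 0.77, 0.60 and 0.44, with adjusted p = 0.0127, 0.0340, 0.0390 and 0.0474 from limma. The listed dnmt3ab and dnmt3bb.1 were not called (log2 differences 0.35 and 0.09, adjusted p = 0.172 and 0.688 from limma). Mammalian counterparts of the dnmt3 genes set methylation on clustered protocadherin promoters, but a link to the protocadherin differences was not tested. WT sibling 3 was the lowest of the 6 libraries in 21 of these 22 genes, against 47.1% of all genes. After median-of-ratios scaling dnmt3ba and nipblb were not called (adjusted p = 0.0559 and 0.125 from limma).

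In the other lists fewer genes were called. Of 12 genes of the WAVE complex, the actin regulator that binds delta2 tails, abi1b was higher (3.15, 2.21 and 2.64 FPKM in mutants, against 0.801, 1.11 and 0.654 in WT siblings, log2 difference 0.98, adjusted p = 0.0147 from limma). Of 8 partner genes, celsr1b, an atypical cadherin of planar cell polarity, was higher (log2 difference 0.75, adjusted p = 0.0490 from limma), but not with median-of-ratios scaling (adjusted p = 0.0642). Of 8 hair-cell tip link genes, the scaffold gene ush1c was higher (0.55, adjusted p = 0.0286 from limma). Only 4 of the 8 had a positive difference, and the list median was -0.0027. The largest difference was that of clrn2, which was not called (-0.81, adjusted p = 0.107 from limma). In clrn2 all mutants lay below all WT siblings. None was called by limma among 10 cytoplasmic kinases and effectors, where ptk2ab had the smallest p (0.39, adjusted p = 0.0556), or among 6 genes of cleavage by ADAM10 and gamma-secretase, where psen2 had it (-0.21, adjusted p = 0.239).

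Markers of nervous and other tissues were read in the same libraries. Of 15 neuronal markers tested 1, elavl3, was higher (81.2, 74.9 and 87.0 FPKM in mutants, against 49.5, 54.8 and 59.9 in WT siblings, adjusted p = 0.0203 from limma, or 0.117 with median-of-ratios scaling) and 0 were lower. In 5 of the 15 all mutants exceeded all WT siblings, and in gap43 and nefmb all lay below them (35.0% and 11.7% of all genes). With median-of-ratios scaling nefmb was called lower (adjusted p = 0.0393 from limma), and 0 neuronal markers were higher. The summed neuronal markers ranged from 1002 to 1025 FPKM in mutants and from 953 to 990 FPKM in WT siblings, without overlap, and WT sibling 3 was the lowest library in 7 of the 15, close to the 47.1% of all genes. Of 10 radial glia markers 0 were higher and glula was lower, with sums of 1027 to 1036 FPKM in mutants and 987 to 1085 FPKM in WT siblings. Of 9 endothelial markers kdrl was higher and tek lower. After median-of-ratios scaling tek was still called but kdrl was not (adjusted p = 0.0154 and 0.0528 from limma). The 9 summed to 64.1 to 64.9 FPKM in mutants and 56.1 to 62.8 FPKM in WT siblings. Of 10 skeletal muscle markers none was called by limma. Their sum was 13078 to 14624 FPKM in mutants and 16307 to 17222 FPKM in WT siblings. In 6 of the 10 all mutants lay below all WT siblings, and in 1 above them. The same held for 4 and 1 of the 9 epidermal markers (11.7% of all genes below and 35.0% above). Without WT sibling 3, 5 of the 10 muscle markers and 3 of the 9 epidermal markers were called lower by limma, against 8.01% of all genes. None was called by limma among 9 photoreceptor markers (sums 64.3 to 90.9 FPKM in mutants, 55.7 to 68.3 in WT siblings), 9 epidermal markers (5145 to 6026 in mutants, 5728 to 6736 in WT siblings) or 6 hair-cell markers tested (7 listed, 37.5 to 38.9 in mutants, 31.3 to 43.5 in WT siblings, with atoh1a at 0 in all but mutant 2). The median log2 difference was 0.19 in neuronal, 0.071 in endothelial and -0.16 in muscle markers, against 0.16 in all genes tested. Relative to that of all genes, the neuronal median was 0.027 and the endothelial median -0.093. Only the sums of these 2 lists were higher in every mutant than in every WT sibling. The part of these marker differences, and of WT sibling 3, in the protocadherin differences was not tested, beyond the values without that library.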

How the data were processed

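Total RNA of pooled larvae was sequenced on an Illumina instrument in 6 libraries. The authors trimmed reads with cutadapt (1.17), aligned them with HISAT2 (2.1.0) and quantified transcripts with StringTie (1.3.3), and deposited FPKM for each gene, computed in Ballgown. These versions and FastQC 0.11.7 stand in the submitters' processing notes, which give GRCh37 as the assembly, whereas the methods give the zebrafish assembly GRCz11; listed IDs are zebrafish ones. The unit was missing in the header of 2 of the 6 tables, whose values span a like range. Strand setting, handling of reads shared by near copies and depth are not given in the sources used here, so no counting error is stated.

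From the FPKM, log2(FPKM + 1) of 18432 genes averaging 0.5 FPKM or more (639 were not tested) entered a limma fit (version 3.58.1, R 4.3.3) without covariates, moderated by eBayes with trend. P-values covered both directions and were adjusted by Benjamini-Hochberg over all genes tested, with calls at an adjusted p under 0.05. The fit was tested on simulated data with independent noise for each gene, which did not model a shift of a whole library such as WT sibling 3. Changes were simulated only in genes with a WT sibling mean above 1 on the log2(FPKM + 1) scale, so lower members were not covered. Alternatives were pseudocounts of 0.1 and 0.5, no filter, a filter at 1 FPKM, TPM rescaling, scaling by median of ratios, quantile-normalized values, the replicate number as a block, unmoderated linear models (alone or with a library covariate from values up to percentile 75), the study's criteria (unadjusted p under 0.05, fold above 1.5) and leaving out each library. The study's criteria were applied to the limma p-value and to the fold on the log2(FPKM + 1) scale. Python 3.11.15 with matplotlib 3.10.9 drew the figures.

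Members and lists were chosen with earlier results of these data known. The text names p2ry11, all called protocadherins, in each class the 5 highest and the 5 most positive and most negative differences, members listed at 0, non-clustered members by role, and of each companion list the called genes or that with the smallest p. Other members were named after their values were seen. Of 60 member IDs, 52 were found among the reference gene names. The files use 56 distinct symbols, since pcdh1a3, pcdh1gb2, pcdh11 and pcdh20 each name more than 1 ID. The RefSeq table is of assembly GRCz12tu, and no coordinates were taken from it. No sequences were used.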

Additional observations from a re-analysis of the deposited data

How the results depend on the processing

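The 9 clustered protocadherins called higher were 5 with a pseudocount of 0.1, 4 with a filter at a mean FPKM of 1, 3 with an ordinary linear model, 0 with the library covariate added to it and 15 by the study's criteria. The study's fold was read on the log2(FPKM + 1) scale, so counts by its criteria may differ from those on FPKM. For example, pcdh1g14 missed it at a log2 difference of 0.51, although its group means had a ratio of 2.14. Leaving out 1 library gave 0 to 15 clustered members called higher. The filter at a mean FPKM of 1 left 21 of the 35 clustered members to test. The 1 called lower was 0 after rescaling to TPM and with either ordinary linear model, and 0 to 2 with 1 library left out. The 1 non-clustered member called higher was 0 after median-of-ratios scaling, with the replicate block and with either ordinary linear model, 4 by the study's criteria and 0 to 6 with 1 library left out. For all genes, the 1517 higher were 1086 with a pseudocount of 0.1 and 1752 by the study's criteria. With the filter at a mean FPKM of 1, where fewer genes were tested, they were 1237. They were 668 with median-of-ratios scaling, 980 with quantile normalization and 672 with the block. With the ordinary linear model they were 624, with its covariate 0, and with 1 library left out 114 to 3747. The 733 lower were 1310, 404, 255 and 0 after quantile normalization, with the block, and with the ordinary linear model without and with the covariate, and 71 to 1488 with 1 library left out. The 7 companion genes called higher were 4 with a pseudocount of 0.1 or median-of-ratios scaling, 3 with the block, 2 with the ordinary linear model, 0 with its covariate and 0 to 22 with 1 library left out, and 1 was called lower after quantile normalization and 1 by the study's criteria. The clustered median of 0.51 was 1.04 and 0.72 with pseudocounts of 0.1 and 0.5, 0.81 after rescaling to TPM, 0.28 after quantile normalization, 0.12 with the library covariate and 0.27 to 0.58 with 1 library left out. The non-clustered median of 0.31 was 0.047 with the library covariate. The cause was not tested in any of these.

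Differences that changed sign were all in members not called. After median-of-ratios scaling they were pcdh1g31 (-0.024), pcdh11 ENSDARG00000105441 (-0.068), pcdh10a (-0.17), pcdh10b (-0.0036) and pcdh19 (-0.011). After quantile normalization they were pcdh1g1 (-0.081), pcdh1g31 (-0.14), pcdh2g28 (-0.023), pcdh11 ENSDARG00000105441 (-0.16), pcdh1a (-0.036), pcdh7a (-0.02) and pcdh10a (-0.085). After rescaling to TPM they were pcdh1gb9 (0.049) and PCDH8 (0.0052). With the library covariate 17 changed sign, namely pcdh1g1 (-0.059), pcdh1g29 (-0.35), pcdh1g30 (-0.65), pcdh1g31 (-0.42), pcdh1g33 (0.16), pcdh1g9 (-0.37), pcdh2ab12 (-0.21), pcdh2ab2 (-0.14), pcdh2g28 (-0.11), pcdh1a (-0.078), pcdh7a (-0.0073), pcdh7b (-0.14), pcdh10b (-0.078), pcdh17 (-0.24), pcdh12 (-0.054), pcdh20 ENSDARG00000036424 (-0.34) and pcdh20 ENSDARG00000101910 (-0.032). With 1 library left out, those that changed sign were pcdh1g26 (-0.29 to 0.10), pcdh1g30 (-0.11 to 0.56), pcdh1g31 (-0.099 to 0.29), pcdh1g33 (-0.23 to 0.0061), pcdh1g9 (-0.014 to 0.43), pcdh1gb9 (-0.17 to 0.096), PCDH8 (-0.20 to 0.019) and pcdh10a (-0.073 to 0.092).

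A pairing of the libraries by replicate number was not clear from their values. Same-numbered libraries correlated at r = 0.016, 0.0718 and 0.138 in their deviations from the group means. The last, mutant 3 with WT sibling 3, was the highest r of any pair. Mutant 1 correlated best with WT sibling 2 (r = 0.032) and mutant 2 with WT sibling 1 (r = 0.113). These correlations are weak and too few to decide if same-numbered pools share a clutch or batch. With the replicate block 6 clustered members were called higher and 1 lower, and 0 non-clustered members. Depth is unknown, and members near 1 FPKM may rest on few fragments.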
